A study of Mus musculus with 10 samples.

Results

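Prostanoids are short-lived lipid signals made from arachidonic acid, and 10 genes that make, sense or clear them were followed in the lungs of young mice. The genes are Ptgs1, Ptgs2, Ptgis, Tbxas1, Ptges and Ptgds for synthesis, Ptgir, Tbxa2r and Ptger4 for reception, and Hpgd for breakdown. They were chosen by name from the 54532 genes of the expression table. All 10 were present, each with 1 row, and all 10 were among the 20448 genes with a mean level of at least 0.1 FPKM (fragment counts scaled to gene length and to sequencing depth) that were tested.

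The IPF group (increased pulmonary flow, n = 5) consisted of wild-type C57BL/6J mice given a fistula between the abdominal aorta and the inferior vena cava at P7, and the Sham group (n = 5) of mice of the same age whose abdomen was opened and vessels exposed without the puncture. Both groups had isoflurane anesthesia, a laparotomy and postoperative buprenorphine, and whole lungs of both were collected at P30 for mRNA sequencing. The question was which branches of the prostanoid pathway differ in lungs that have carried extra flow since the first week of life. Each sample had 15483046 to 19026843 recovered reads on genes.

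In this pathway the cyclooxygenases Ptgs1 and Ptgs2 turn arachidonic acid into a common unstable precursor. Separate synthases then convert it: Ptgis makes prostacyclin, Tbxas1 makes thromboxane, Ptges makes prostaglandin E and Ptgds makes prostaglandin D. Prostacyclin, acting through its receptor Ptgir, relaxes pulmonary vessels and restrains platelets. Thromboxane, acting through Tbxa2r, contracts vessels and activates platelets. Ptger4 is a relaxing receptor for prostaglandin E, and Hpgd, which is abundant in lung, inactivates prostaglandins by oxidizing them.

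Before the results, 3 features of the samples bear on every comparison. All IPF samples expressed Xist, an RNA of female cells, at 26.8 to 43.2 FPKM and had no reads on the Y-linked Ddx3y. All Sham samples had Ddx3y at 14.3 to 21.4 FPKM and Xist at no more than 0.0767 FPKM, so surgery and sex cannot be told apart, although the methods describe pups of both sexes with balanced allocation where feasible. The clock gene Arntl was at 3.31 to 6.85 FPKM in the IPF group and 0.311 to 0.452 FPKM in the Sham group, and Dbp at 1.74 to 3.49 against 23.2 to 29.3 FPKM, so surgery and clock phase cannot be told apart either. IPF replicate 5 and sham replicate 1 were singled out within their groups after values were seen, and results that rest on them are given with and without them. Other samples that lay apart for single values are listed at the end. In whole lung, fewer cells of a type and less RNA per cell cannot be told apart. Lung identity was clear in every sample, with the summed level of 7 alveolar type 2 markers at 16003 to 25513 FPKM.

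Promoter sequences are shown for the receptor that rose, Ptgir, and for Ptgs1 and Ptges, the 2 of the 10 genes that gained a call when IPF replicate 5 was left out. Each line gives 300 bases, from 250 before to 50 after the RefSeq transcript start on GRCm38.p6, read 5′ to 3′ on the gene's strand, with capitals marking the GC box GGGCGG on either strand. The Ptgir window is chr7:16906240-16906539 on the plus strand, the Ptgs1 window chr2:36230176-36230475 on the plus strand and the Ptges window chr2:30903248-30903547 on the minus strand.
Ptgir: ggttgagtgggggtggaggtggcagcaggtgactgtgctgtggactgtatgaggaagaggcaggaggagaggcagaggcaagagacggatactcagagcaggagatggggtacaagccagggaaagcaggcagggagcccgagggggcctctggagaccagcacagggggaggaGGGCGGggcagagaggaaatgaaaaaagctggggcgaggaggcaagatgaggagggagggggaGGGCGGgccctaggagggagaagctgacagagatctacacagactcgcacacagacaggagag
Ptgs1: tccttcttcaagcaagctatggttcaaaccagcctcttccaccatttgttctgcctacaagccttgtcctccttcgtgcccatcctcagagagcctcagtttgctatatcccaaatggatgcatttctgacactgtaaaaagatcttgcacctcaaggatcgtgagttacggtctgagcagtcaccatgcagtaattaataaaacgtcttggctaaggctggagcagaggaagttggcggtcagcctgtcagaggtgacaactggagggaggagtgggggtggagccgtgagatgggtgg
Ptges: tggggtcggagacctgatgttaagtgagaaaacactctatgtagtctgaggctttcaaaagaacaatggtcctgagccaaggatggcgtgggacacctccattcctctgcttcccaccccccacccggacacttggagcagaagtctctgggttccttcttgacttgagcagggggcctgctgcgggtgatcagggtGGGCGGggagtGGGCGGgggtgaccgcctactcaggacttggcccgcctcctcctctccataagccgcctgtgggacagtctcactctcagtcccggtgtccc

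Ptgir and Ptges each held 2 GC boxes and Ptgs1 held none. RefSeq windows were found for 9 of the 10 genes, with 2 starts for Tbxa2r, so 10 windows were searched on both strands. The GC box was in 6 of these 10 windows and in 35.7% of 32851 mouse promoters of the same length. The TATA box letters TATAAA were in 2 windows, those of Hpgd and Tbxas1, and in 13.6% of all promoters. The E-box letters CACGTG were in the Ptgs2 window alone and in 7.15% of all promoters. The cyclic AMP response element TGACGTCA was in 0 windows and in 1.79% of all promoters. No motif overlapped another type of motif in these windows, and a match describes letters only.

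The prostacyclin receptor rose in the IPF group, and it was the only 1 of the 10 genes to pass the test across all genes. The other 9 had adjusted p-values from 0.0764 to 0.983. Of all genes tested, 5.85% passed at an adjusted p under 0.05 and 3.71% passed with a higher level in the IPF group, so 1 of 10 is close to the background. None of the 10 passed the adjusted p limit together with an absolute log2 fold change above 1, which 1.14% of all genes did. The log2 fold changes were positive for 5 genes and negative for 5, with a median of 0.015 against 0.0016 over all genes tested.

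**Figure D1:**
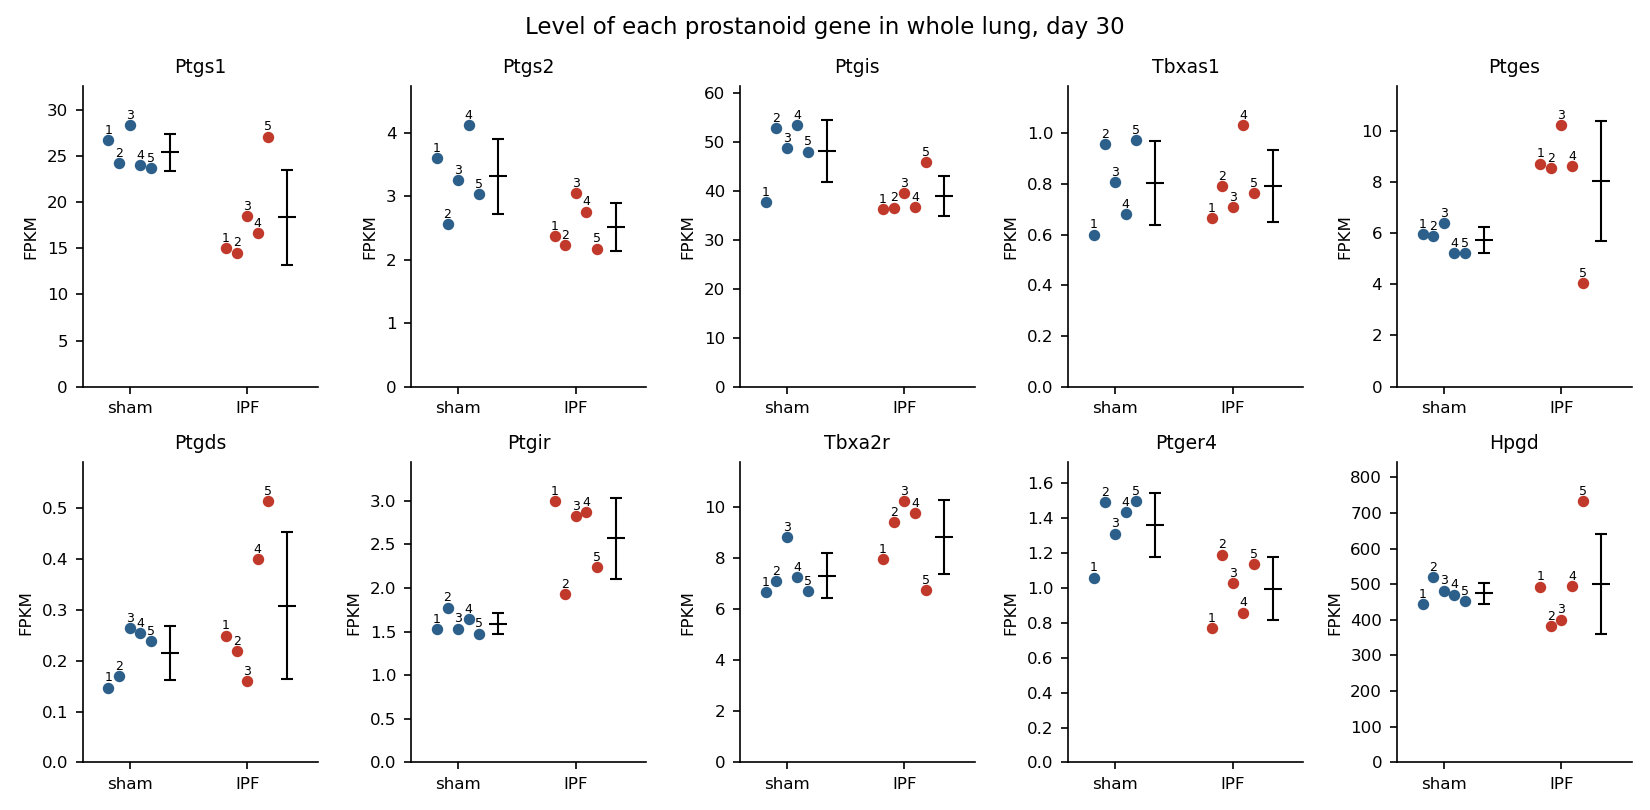
FPKM of each of the 10 genes in every sample; blue points are Sham, red points are IPF, the small digit is the replicate number, and the black mark beside each group is its mean with SD (n = 5). Ptgir is the one gene whose 5 IPF points all lie above the 5 Sham points, and IPF replicate 5 lies away from the other IPF points for Ptgs1, Ptges and Hpgd.

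Because FPKM is scaled to gene length, the levels of the 10 genes can be set beside each other. In the Sham group the order of mean FPKM was Hpgd (474), Ptgis (48.1), Ptgs1 (25.4), Tbxa2r (7.31), Ptges (5.74), Ptgs2 (3.31), Ptgir (1.59), Ptger4 (1.36), Tbxas1 (0.804) and Ptgds (0.215). In 8 of the 9 neighbouring pairs every Sham sample of the higher gene lay above every Sham sample of the lower one, the exception being Ptgir and Ptger4. In the IPF group 6 of 9 pairs were separated in this way, and Tbxa2r with Ptges, Ptgir with Ptgs2, and Ptger4 with Tbxas1 overlapped. Hpgd ranked above 99.8% of all genes tested by mean FPKM, Ptgis above 94.7% and Ptgs1 above 88.1%, while Ptgds ranked above 15.7%.

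Synthesis starts with the cyclooxygenases. Ptgs1 (chr2:36230426-36252272, GRCm38), the constitutive enzyme, was at 14.99, 14.5, 18.5, 16.6 and 27.1 FPKM in IPF replicates 1 to 5 and at 26.7, 24.2, 28.3, 24.0 and 23.7 FPKM in Sham replicates 1 to 5. The first 4 IPF samples lay below all Sham samples and IPF replicate 5 lay inside the Sham range. Means were 18.4 ± 5.13 and 25.4 ± 2.03 FPKM (SD, n = 5 each). On the log2 scale IPF minus sham was -0.50 (standard error 0.15, 95% interval -0.83 to -0.18), and limma gave an adjusted p of 0.0764. Without IPF replicate 5 the log2 fold change was -0.65 (standard error 0.084) and the adjusted p 0.00138, with 16.2 ± 1.79 FPKM in the remaining 4 IPF samples. On the recovered reads, which numbered 941 to 1862 per sample, limma voom gave an adjusted p of 0.0240 with all samples.

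Ptgs2, the inducible cyclooxygenase, was at 2.37, 2.23, 3.05, 2.76 and 2.17 FPKM in the IPF samples and 3.60, 2.56, 3.25, 4.12 and 3.04 FPKM in the Sham samples. The groups overlapped, with 3 IPF samples below every Sham sample. On the log2 scale IPF minus sham was -0.38 (95% interval -0.68 to -0.077, adjusted p = 0.148 from limma). The ratio of Ptgs1 to Ptgs2 FPKM was 6.03 to 6.53 in the first 4 IPF samples, 12.5 in IPF replicate 5, and 5.83 to 9.47 in the Sham samples. The first 4 IPF samples thus held both enzymes in a narrow proportion inside the Sham range.

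Ptgis, the enzyme that makes prostacyclin (chr2:167191805-167240604), was at 36.2, 36.5, 39.5, 36.6 and 45.8 FPKM in the IPF samples and 37.7, 52.7, 48.6, 53.4 and 47.9 FPKM in the Sham samples. Sham replicate 1 lay among the IPF samples, and IPF replicate 5 was the highest of its group. Its log2 fold change of -0.30 (standard error 0.10, 95% interval -0.52 to -0.075) had an adjusted p of 0.124 by limma. Without sham replicate 1 it was -0.38 with an adjusted p of 0.0251, and without IPF replicate 5 it was -0.36 with 0.0513.

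Tbxas1, the thromboxane synthase, was at 0.665, 0.792, 0.7095, 1.03 and 0.764 FPKM in the IPF samples and 0.600, 0.957, 0.808, 0.680 and 0.973 FPKM in the Sham samples. The groups overlapped almost fully. The log2 fold change was -0.012 and the 95% interval of -0.39 to 0.36 left room for a change of either sign (limma adjusted p = 0.983). The gene shares 762 bases with Hipk2 on the opposite strand, a gene at 9.09 FPKM in the IPF group and 10.4 FPKM in the Sham group, and whether the counting used strand is not given in the sources used here.

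The prostacyclin synthase thus stood far above the thromboxane synthase in these lungs. The ratio of Ptgis to Tbxas1 FPKM was 54.4, 46.1, 55.7, 35.5 and 60.0 in the IPF samples and 62.7, 55.1, 60.1, 78.5 and 49.3 in the Sham samples. The ranges overlapped, at 50.4 ± 9.70 and 61.1 ± 11.0 (SD, n = 5 each). Transcript ratios say nothing of enzyme amount or of the prostanoids themselves, which were not measured here.

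Ptges, the inducible prostaglandin E synthase, was at 8.71, 8.53, 10.2, 8.63 and 4.04 FPKM in the IPF samples and 5.96, 5.89, 6.40, 5.22 and 5.20 FPKM in the Sham samples. The first 4 IPF samples lay above all Sham samples and IPF replicate 5 lay below all of them. Over all samples the log2 fold change was 0.42 (standard error 0.21, 95% interval -0.038 to 0.87) with a limma adjusted p of 0.299. Without IPF replicate 5 it was 0.65 (standard error 0.084) with an adjusted p of 0.00146, and the mean of the 4 remaining samples was 1.57 times the Sham mean. The gene's span in the table, chr2:30889471-30929863, begins upstream of the RefSeq start printed above.

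The first 4 IPF samples therefore combined lower Ptgs1 and higher Ptges than any Sham sample, and IPF replicate 5 did neither. The ratio of Ptges to Ptgis FPKM was 0.240, 0.234, 0.258 and 0.235 in these 4 samples, 0.0881 in IPF replicate 5, and 0.0979 to 0.158 in the Sham samples. Without IPF replicate 5, 3 of the 10 genes passed the test (Ptgs1, Ptges and Ptgir) and the groups of the same 3 did not overlap; over all genes tested those shares were then 7.92% and 12.1%. With sham replicate 1 left out as well, an alternative chosen after seeing the data, Ptgis joined them and 4 of the 10 passed, beside 7.10% of all genes in the same fit. Leaving out IPF replicate 5 removes the values that went against the other 4 for Ptgs1 and Ptges. The 2 calls gained this way follow from that choice of sample and are no separate support. Of 19 alternatives, Ptgs1 was not called in 16 (limma adjusted p up to 0.172). Ptges was not called in 17 of 19 (up to 0.464).

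**Figure D2:**
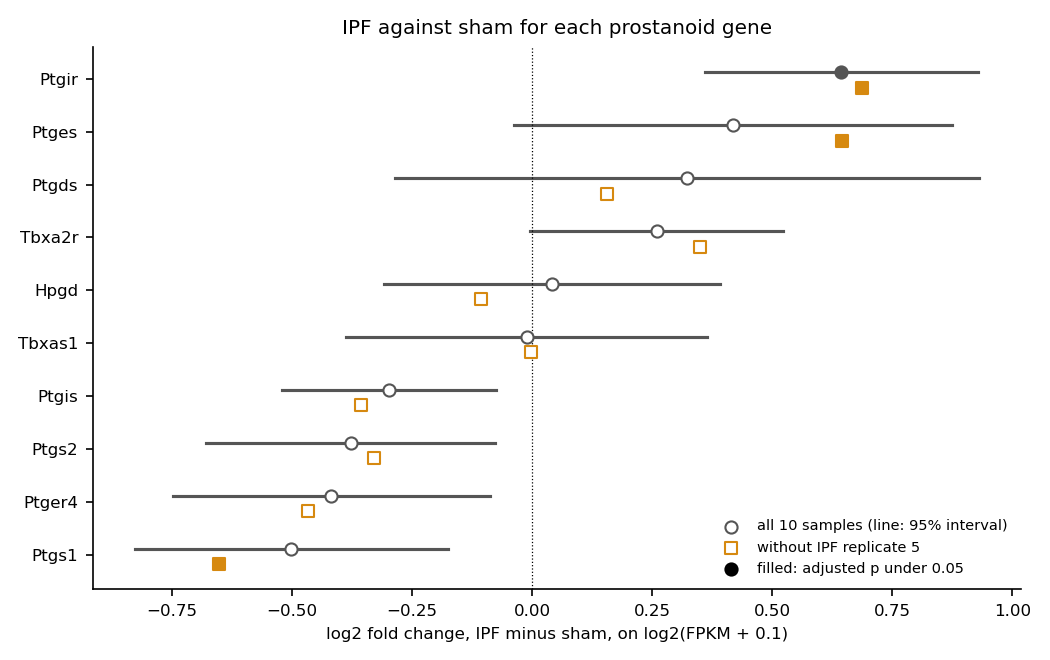
Log2 fold change, IPF minus sham, of each gene on log2(FPKM + 0.1): gray circles with 95% intervals use all 10 samples, orange squares leave out IPF replicate 5, and filled marks have an adjusted p under 0.05. Ptgir is filled both ways, while Ptgs1 and Ptges are filled only without IPF replicate 5.

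IPF replicate 5 differed in other ways too. Its summed level of 8 neutrophil markers was 311 FPKM, against 54.1 to 74.8 in the other IPF samples and 15.5 to 72.8 in the Sham samples. Its Arntl level, 3.31 FPKM, was the lowest of the group, where the others were at 5.61 to 6.85. Of the 10 prostanoid genes it was the highest of its group for 4 and the lowest for 3. The part of these features in the Ptgs1 and Ptges values was not tested.

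Ptgds, a prostaglandin D synthase better known from brain, rested on 4 to 15 reads per sample. Its level was 0.249, 0.218, 0.160, 0.399 and 0.514 FPKM in the IPF samples and 0.147, 0.169, 0.264, 0.255 and 0.239 FPKM in the Sham samples. The groups overlapped, and no change was detected (log2 fold change 0.32, 95% interval -0.29 to 0.93, limma adjusted p = 0.578).

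Among the receptors, Ptgir (chr7:16906490-16910905) was at 3.00, 1.93, 2.82, 2.86 and 2.24 FPKM in the IPF samples and 1.53, 1.77, 1.53, 1.64 and 1.48 FPKM in the Sham samples. Every IPF sample lay above every Sham sample. Groups that did not overlap, in either direction, were found for 7.29% of all genes tested and for 1 of the 10 genes here. Means were 2.57 ± 0.463 and 1.59 ± 0.119 FPKM (SD, n = 5 each), a ratio of 1.62. This is a log2 fold change of 0.64 (standard error 0.13, 95% interval 0.36 to 0.93), and its adjusted p was 0.0146 by limma. The exact two-sided permutation test gave p = 0.00794, the smallest that 5 against 5 samples allow. Each value rested on 75 to 178 reads, and the gene passed in all 19 alternative analyses, with adjusted p-values from 0.00872 to 0.0470.

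Tbxa2r, the thromboxane receptor, was at 7.96, 9.41, 10.2, 9.75 and 6.74 FPKM in the IPF samples and 6.67, 7.09, 8.83, 7.26 and 6.70 FPKM in the Sham samples. IPF replicates 2 to 4 lay above all Sham samples and IPF replicate 5 lay near the bottom of the Sham range. With a log2 fold change of 0.26 and a 95% interval of -0.0044 to 0.52, it did not pass (adjusted p = 0.264, limma). Its log2 fold change was 0.35 without IPF replicate 5 (limma adjusted p = 0.0646). Without sham replicate 3, the highest Sham sample, it was 0.33 (limma adjusted p = 0.175). Tbxa2r was the more abundant of the paired receptors in every sample. The ratio of Ptgir to Tbxa2r FPKM was 0.205 to 0.376 in the IPF samples and 0.174 to 0.25 in the Sham samples, and 4 of the 5 IPF ratios exceeded every Sham ratio.

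Ptger4, the relaxing prostaglandin E receptor, was at 0.769, 1.19, 1.03, 0.858 and 1.14 FPKM in the IPF samples and 1.06, 1.49, 1.31, 1.44 and 1.499 FPKM in the Sham samples. The IPF samples were the lower ones except where sham replicate 1 lay among them. On the log2 scale IPF minus sham was -0.42 (standard error 0.15, 95% interval -0.75 to -0.088, adjusted p = 0.144 by limma). Without sham replicate 1 it was -0.50 (adjusted p = 0.0897) and the groups did not overlap, the lowest remaining Sham value being 1.31 FPKM. With IPF replicate 5 left out as well the log2 fold change was -0.55 (adjusted p = 0.0662). Ptger4 shares 11676 bases with Ttc33 on the opposite strand, a gene at 12.9 FPKM in the IPF group and 12.8 FPKM in the Sham group.

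Ptgir and Ptgs2 were separated in the Sham group and overlapped in the IPF group. In the Sham samples Ptgir was at 0.398 to 0.693 of the Ptgs2 level, and in the IPF samples at 0.865 to 1.26 of it, with no overlap between the groups. This ratio was chosen after its values were seen and is given as a description.

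**Figure D3:**
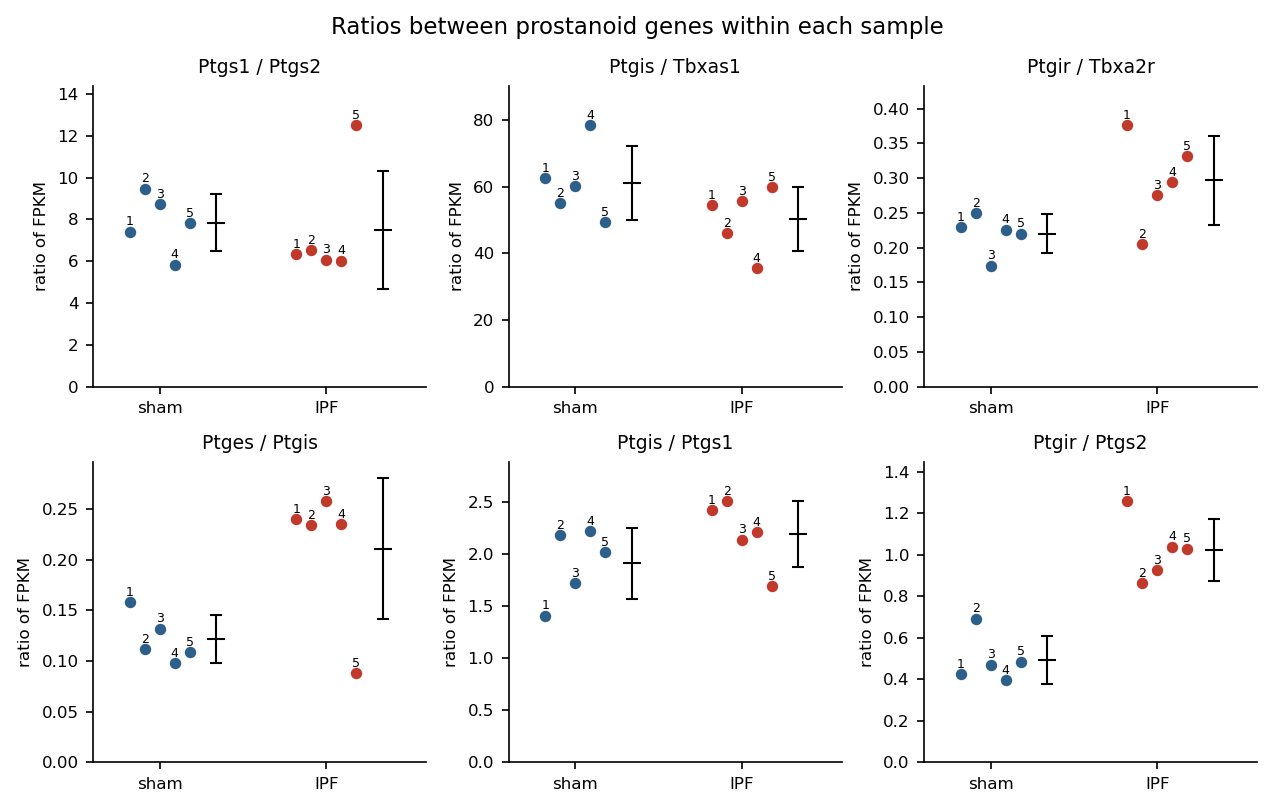
Ratios of FPKM between pairs of prostanoid genes within each sample; blue is Sham, red is IPF, the digit is the replicate number and the black mark is the mean with SD (n = 5). Ptgir over Ptgs2 is the one ratio whose groups do not overlap, and Ptges over Ptgis separates IPF replicates 1 to 4, at 0.234 to 0.258, from IPF replicate 5 at 0.0881.

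Breakdown of prostaglandins rests on Hpgd, the most abundant of the 10 genes, with 10717 to 21844 reads per sample. It was at 493, 382, 401, 495 and 734 FPKM in the IPF samples and 445, 521, 482, 471 and 453 FPKM in the Sham samples. The IPF samples lay on both sides of the Sham range, with 2 below it and 1 above it. Its log2 fold change was 0.041 (95% interval -0.31 to 0.39, adjusted p = 0.925 by limma) and became -0.11 without IPF replicate 5. The coefficient of variation of Hpgd was 27.9% in the IPF group, 13.5% without IPF replicate 5, and 6.28% in the Sham group. It was larger in the IPF group for 7 of the 10 genes, and for 5 without IPF replicate 5, a description with no test.

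The wider pathway was read from 53 other eicosanoid genes in 5 lists, of which 52 were in the table and 41 were tested. Of these 41, 3 rose and 0 fell, beside the 5.85% of all genes that passed in either direction. The groups of 3 of the 41 did not overlap, beside 7.29% of all genes. The median log2 fold change of the 41 was 0.053, with 26 positive and 15 negative. With no filter on low values, and with no variance trend, 1 of them passed, and leaving out single samples gave 0 to 4.

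Of the phospholipases that release arachidonic acid, 0 of 12 tested passed. The most abundant, Pla2g15, a lysosomal enzyme, was at 17.5 ± 1.46 FPKM in the IPF group and 17.02 ± 2.50 FPKM in the Sham group (SD, n = 5 each). The lowest adjusted p of the list was 0.170. Pla2g12a, a secreted phospholipase, was at 9.55 FPKM in IPF replicate 5 and at 5.83 to 6.49 FPKM in the other IPF samples. Its log2 fold change was -0.12 with all samples (adjusted p = 0.632 by limma) and -0.24 (adjusted p = 0.0409) without IPF replicate 5, and it was also called with sham replicate 1 left out as well. Pla2g12b, on 4 to 7 reads in the IPF samples and 1 to 7 in the Sham samples, went the other way. Its log2 fold change was 0.82 with all samples (limma adjusted p = 0.189), and it was called only without sham replicate 4. Pla2g4d and Pla2g2f were listed at 0 in all samples.

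Of the other prostanoid synthases, 1 of 6 passed. Ptges3, a co-chaperone that also carries prostaglandin E synthase activity, was at 51.4, 55.3, 44.3, 49.8 and 42.1 FPKM in the IPF samples and 28.8, 38.6, 32.7, 44.4 and 34.1 FPKM in the Sham samples. The groups overlapped through sham replicate 4. Its log2 fold change of 0.45 (standard error 0.11) had an adjusted p of 0.0422 by limma. The call was held when either IPF replicate 5 or sham replicate 4 was left out and lost without any other sample, where the adjusted p reached 0.107.

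Of the other prostanoid receptors, 0 of 5 tested passed, and the lowest adjusted p was 0.123. The most abundant was Ptgfr, the receptor for prostaglandin F, at 3.72 ± 0.383 FPKM in the IPF group and 3.87 ± 0.432 FPKM in the Sham group (SD, n = 5 each). Ptgdr, a receptor for prostaglandin D, had at most 3 reads in any sample.

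Of the genes for uptake, export and reduction, 0 of 7 passed with all samples. Slco2a1, the transporter that takes prostaglandins into cells for breakdown, was the most abundant of all 52 genes. It was at 61.8, 44.4, 46.7, 52.5 and 78.1 FPKM in the IPF samples and 85.3, 67.2, 73.8, 65.6 and 70.7 FPKM in the Sham samples. As with Ptgs1, the first 4 IPF samples lay below all Sham samples and IPF replicate 5 lay inside the Sham range. On the log2 scale IPF minus sham was -0.38 (adjusted p = 0.163 by limma), and without IPF replicate 5 it was -0.50 (standard error 0.11, adjusted p = 0.0191).

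Of the lipoxygenase and leukotriene genes, which draw on the same arachidonic acid, 2 of 11 passed and both rose. Lta4h, the enzyme that makes leukotriene B, was at 11.5, 11.6, 11.7, 12.1 and 11.7 FPKM in the IPF samples and 8.98, 9.82, 9.39, 10.1 and 10.7 FPKM in the Sham samples. The groups did not overlap, and the rise was small, a log2 fold change of 0.26 (standard error 0.057, limma adjusted p = 0.0218). Leaving out single samples gave adjusted p-values from 0.0167 to 0.0595, with the call lost without IPF replicate 4 or sham replicate 3.

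Cysltr1, a receptor for cysteinyl leukotrienes that lies on the X chromosome, was at 1.92, 2.29, 1.605, 2.62 and 2.10 FPKM in the IPF samples and 0.873, 1.53, 0.993, 1.39 and 1.45 FPKM in the Sham samples. The groups did not overlap. Its log2 fold change was 0.72 (standard error 0.18, adjusted p = 0.0363 by limma), and the call was lost in 7 of the 10 fits that left out 1 sample. Alox5ap, the most abundant gene of this list, helps 5-lipoxygenase to its substrate. It was at 12.7 to 18.4 FPKM in the IPF samples and 9.78 to 12.6 FPKM in the Sham samples, also without overlap, with a log2 fold change of 0.37 and an adjusted p of 0.0575. It was called with voom on recovered reads, with a mean of at least 1 FPKM, with the replicate number as a block and without IPF replicate 1.

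**Figure D4:**
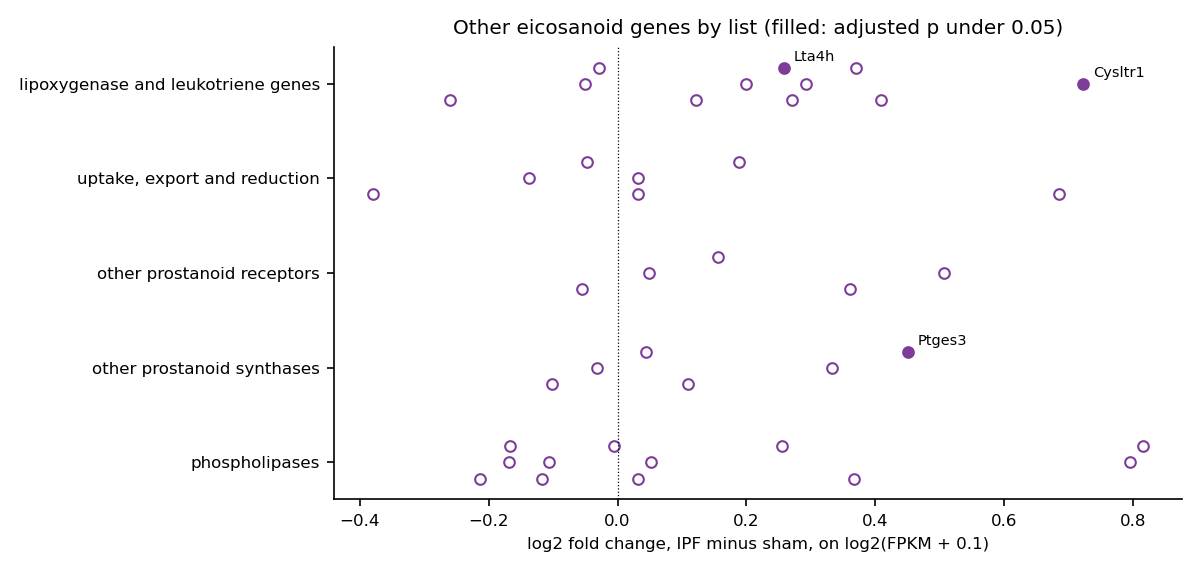
Log2 fold change, IPF minus sham, on log2(FPKM + 0.1), of the 41 other eicosanoid genes tested, by list; each circle is a gene and filled circles have an adjusted p under 0.05. The 3 filled circles, Lta4h, Cysltr1 and Ptges3, all lie to the right of 0.

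Markers of the cells that express these genes were read beside them. Of 10 endothelial markers 8 were higher in the IPF group, the groups of 2, Cldn5 and Tek, did not overlap, and 1 passed: Cldn5, a tight junction gene, was at 450.5 ± 20.7 FPKM in the IPF group and 308.5 ± 42.8 FPKM in the Sham group (SD, n = 5 each), which is 0.56 on the log2 scale with an adjusted p of 0.0107 by limma. The summed endothelial level was 1301 to 1486 FPKM in the IPF samples and 1173 to 1215 FPKM in the Sham samples. This separation rested on Cldn5: the other 9 markers summed to 868 to 1038 FPKM in the IPF samples and 849.6 to 935 FPKM in the Sham samples, which overlap. Of 8 smooth muscle markers 0 passed, with sums of 164 to 279 and 180.4 to 221 FPKM.

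Platelets carry Ptgir, Tbxa2r, Ptgs1 and Tbxas1. Of 9 platelet and megakaryocyte markers tested 0 passed, and their sums were 28.4 to 39.6 FPKM in the IPF samples and 22.7 to 35.5 FPKM in the Sham samples. Gp1bb was listed at 0 in all IPF samples and in 4 of 5 Sham samples. Of 10 macrophage markers 0 passed, with sums of 309.9 to 486 and 266 to 440.3 FPKM, with 8 of the 10 higher in the IPF group and a median log2 fold change of 0.25. Of 8 neutrophil markers 0 passed, but all 8 were higher in the IPF group, with log2 fold changes of 0.83 to 1.83 and a median of 1.06. Without IPF replicate 5 all 8 were still higher and 0 passed, with 0.54 to 1.17 and a median of 0.81, and their sums are given above. The part of these cells in the values of Alox5ap, Lta4h and Cysltr1 was not tested.

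Mast cells make prostaglandin D and cysteinyl leukotrienes. Of 5 mast cell markers tested 2 passed: the protease genes Cpa3, at 4.86 ± 2.00 against 0.909 ± 0.247 FPKM (log2 fold change 2.20, limma adjusted p = 0.00345), and Cma1, at 0.840 ± 0.299 against 0.299 ± 0.0919 FPKM (1.21, 0.0211; SD, n = 5 each). Hpgds, the blood-cell prostaglandin D synthase, was at 0.325 ± 0.105 and 0.291 ± 0.0796 FPKM with a log2 fold change of 0.11 (adjusted p = 0.853). Of 8 fibroblast markers 2 passed, Pdgfra with a log2 fold change of 0.35 (adjusted p = 0.0212) and Lum with 1.09 (adjusted p = 0.0415). Of the mesothelial, alveolar type 1, alveolar type 2, airway, and cardiac and venous muscle markers 0 passed. The summed level of 8 airway markers was 4263, 5974 and 5351 FPKM in IPF replicates 1, 2 and 4, below every Sham sample (12160 to 23627 FPKM), and 28123 and 13764 FPKM in IPF replicates 3 and 5. Most of this sum was 1 gene, Scgb1a1. It was at 3285, 4791 and 4328 FPKM in IPF replicates 1, 2 and 4 and at 11080 to 22150 FPKM in the Sham samples. Of the 8 airway markers, 6 were lower and 2 higher in the IPF group, with Scgb3a2 among the higher. The part of these cells in the prostanoid values was not tested.

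**Figure D5:**
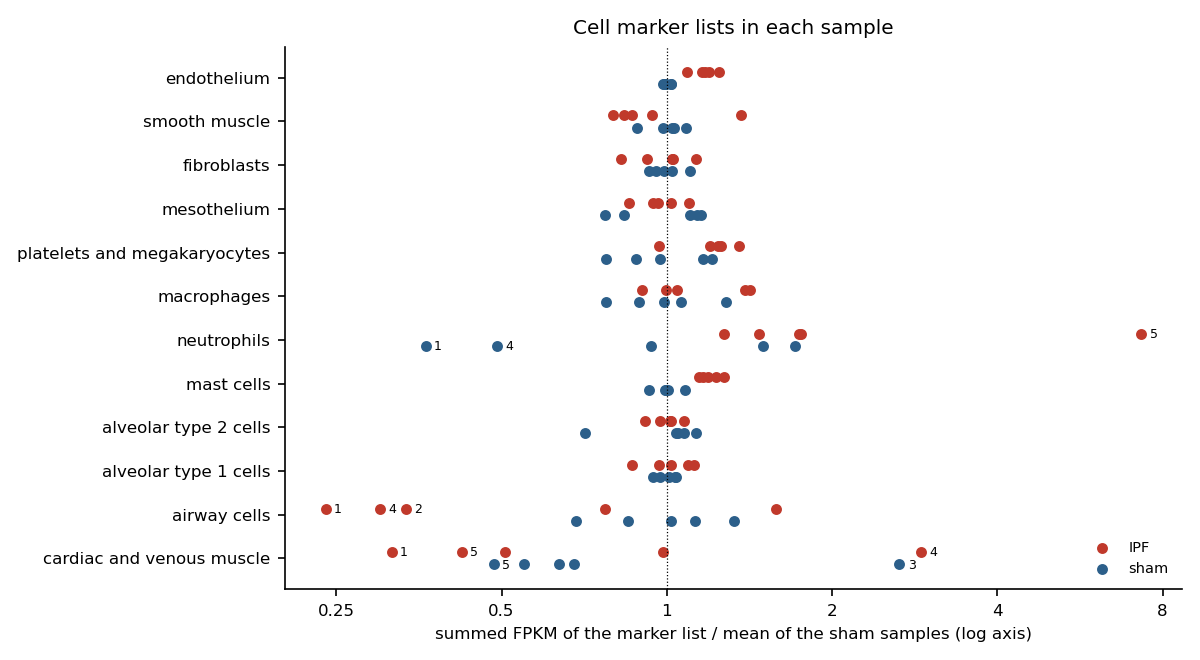
Summed FPKM of each cell marker list in every sample, divided by the mean of the Sham samples, on a log axis; red is IPF, blue is Sham, and points beyond a factor of 2 from the Sham mean carry their replicate number. Endothelial and mast cell sums of the IPF samples lie above all Sham samples, the endothelial sum through Cldn5 alone. Airway sums, which are mostly Scgb1a1, lie far to the left in IPF replicates 1, 2 and 4. IPF replicate 5 is far to the right for neutrophils.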

How the data were processed

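mRNA was sequenced from the lungs of 5 fistula and 5 sham mice. According to the methods, the authors used Fastp for trimming, HISAT2 for alignment and StringTie for quantification; the deposited values are FPKM for 54532 genes. The methods name GRCm39, but the deposited positions fit GRCm38, since a gene on chromosome 1 ends at 195323493, past the length of that chromosome in GRCm39. The labels name an NEBNext kit for the libraries and the methods a KAPA kit, and strand in counting is not given in the sources used here. Each FPKM value was a whole multiple (within 0.1 read) of the value of 1 read, so reads were recovered.

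Genes with a mean of at least 0.1 FPKM were tested with limma 3.58.1 (R 4.3.3, trended empirical Bayes) on log2(FPKM + 0.1), IPF against sham, with Benjamini-Hochberg adjustment over all 20448 genes. A gene was called, and is said to have risen or fallen, at an adjusted p under 0.05. A fold change on this scale understates that of low genes. Nothing in the labels says more of the replicates than their numbers, and each sample was taken as 1 mouse. The p-values set the difference between groups against the spread between samples within groups. The script was tested on simulated data. The genes and lists were chosen with earlier results of these data known. Named are all 10 members, the most abundant and all called genes of each pathway list, and up to 3 called genes of each marker list. Hpgds, Ptgdr, Pla2g12a, Pla2g12b, Pla2g4d, Pla2g2f, Gp1bb and other marker genes that did not pass were added after their values were seen. Alternatives were pseudocounts of 1 and 0.01, no filter or a mean of at least 1 FPKM, median-of-ratios scaling, no variance trend, voom on recovered reads, replicate numbers as a block, and leaving out samples. Figures were drawn in Python 3.11.15 with matplotlib 3.10.9.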

Additional observations from a re-analysis of the deposited data

Results flagged for a closer look

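In 56 groups of 5 samples (10 genes, 6 ratios and 12 marker sums in each group), 9 times a sample lay so far from the others of its group that its gap passed Dixon's 95% critical value, where chance does so in about 1 group in 20. IPF replicate 5 was low for Ptges, at 4.04 FPKM against 8.53 to 10.2 in the other IPF samples. It was low for the ratio of Ptges to Ptgis, at 0.0881 against 0.234 to 0.258, and high for the ratio of Ptgs1 to Ptgs2, at 12.5 against 6.03 to 6.53. The same sample was high for the neutrophil marker sum, at 311 FPKM against 54.1 to 74.8. Sham replicate 3 was high for Tbxa2r, at 8.83 FPKM against 6.67 to 7.26, and for cardiac and venous muscle markers, at 150.4 FPKM against 27.4 to 38.5. IPF replicate 4 was high for the same muscle markers, at 165 FPKM against 17.9 to 55.9. IPF replicate 3 was high for smooth muscle markers, at 279 FPKM against 164 to 192. Sham replicate 1 was low for the sum of alveolar type 2 markers, at 16003 FPKM against 23454 to 25513, and was the lowest of its group for 6 of the 10 prostanoid genes. Most of that marker sum was Sftpc, at 9437 FPKM against 14940 to 16510. Lyz2, Sftpa1 and Lamp3 were also lowest in this sample. Sftpb and Slc34a2 were not, and Abca3 was the highest of its group there.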

How the results depend on the processing

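The number of prostanoid genes called was 1 with all samples and ranged from 1 to 3 when single samples were left out, with 3 without IPF replicate 5 (7.92% of all genes were then called) and 2 without sham replicate 1 (4.46%). It was 2 with limma voom on recovered reads (7.17%) and 4 with IPF replicate 5 and sham replicate 1 left out together (7.10%). The number whose groups did not overlap, 1 with all samples, ranged from 1 to 3 when single samples were left out, with 3 without IPF replicate 5 (12.1% of all genes) and 3 without sham replicate 1 (8.93%), and was 5 without both (14.4%). The number of other eicosanoid genes called, 3 with all samples, was 1 with no filter (2.89% of all genes called) and 1 with no variance trend (4.69%), and ranged from 0 to 4 when single samples were left out, with 0 without IPF replicate 4 (3.66%) or sham replicate 3 (3.90%) and 1 without IPF replicate 2 (3.85%) or sham replicate 1 (4.46%). The cause was not tested. The log2 fold change of Tbxas1 ranged from -0.10 to 0.0554 when single samples were left out and was positive in 4 of these fits, 0.0202 to 0.0554. That of Hpgd ranged from -0.11 to 0.13, with -0.11 without IPF replicate 5, and was -0.13 with sham replicate 1 left out as well. Of 188 alternative log2 fold changes of the 10 genes, 175 kept their direction and side of the threshold. Deviations of samples with the same replicate number correlated weakly (-0.020 to 0.095), and the numbers were not taken to pair the samples. For 3 of the 5 numbers, however, both samples correlated best with each other, so pairing by number was not settled. With the replicate number as a block, 1 of the 10 genes and 4 of the other eicosanoid genes were called, beside 5.11% of all genes. Ptgds rested on 4 to 15 reads per sample.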
